A study of Homo sapiens with 16 samples.

Results

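The response to siGGGGGC was compared between PC3 and HeyA8 cells by subtracting the HeyA8 response from the PC3 response, gene by gene. The comparison used 8 of the 16 libraries of the series. They were the siGGGGGC and siNT1 libraries of both cell lines at 24 and 48 h after transfection, chosen by their labels, with 1 library for each line, siRNA and time point. PC3 is a line from a bone metastasis of prostate cancer, without a working p53 protein, and HeyA8 is an ovarian cancer line. Both were transfected at 1 nM according to the sample labels, with the lipid reagent RNAiMAX, in 6-well plates. siGGGGGC, titled siMxy in the labels, is an siRNA whose active strand carries the 6mer seed GGGGGC, and siNT1 is the non-targeting control. Total RNA was sequenced after removal of ribosomal RNA. The siCAG and untransfected mock libraries were left out of the main fit, and mock was used only as a second control. Each line was grown and transfected on its own and fewer HeyA8 than PC3 cells were plated, so line, handling and plating density cannot be told apart. Nothing in the labels says that the 24 h and 48 h libraries of a line came from separate cultures, so p-values measure the spread between these libraries. In the fit, that spread is the change of a line's siGGGGGC response from 24 to 48 h. A response that grew with time therefore widens the SEs and raises the p-values, and neither measures the precision of replicates.

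An siRNA or miRNA guides an Argonaute protein to messenger RNAs that pair with its seed, the short stretch near its 5′ end, mostly in the 3′ UTR, and these messages are then degraded or left untranslated. Seeds rich in G close to the 5′ end are known to be toxic to cancer cells, a form of death called DISE (death induced by survival gene elimination), in which many genes needed for survival are silenced at once. Which messages can be direct targets is set by sequence and by which of them a cell expresses, and the later response depends on the cell type as well.

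The sequences that define the direct targets are given first. They were read from reference transcripts, and the 3′ UTR forms and variants of either line were not examined. A target carries GCCCCC, the reverse complement of the seed. The 4 sites below lie in the 3′ UTRs of targets described further on, with the seed match in capitals and 12 bases on each side, from the hg38 assembly with GENCODE transcripts.
EIF5A, chr17:7311851-7311880, plus strand: gaacctgcagagGCCCCCtccccgagcctg
PES1, chr22:30576751-30576780, minus strand: gaggcccacccaGCCCCCtacctactgccc
POLR2E, chr19:1088635-1088664, minus strand: tgccagaatccgGCCCCCacagctctcacg
HMGA1, chr6:34244948-34244977, plus strand: tccgctcccaccGCCCCCaccccttcccca
The 3′ UTRs of EIF5A and HMGA1 hold 5 such matches each, and those of PES1 and POLR2E hold 3 each. Of 2370 mature human miRNAs in RefSeq (GRCh38.p14), 2 carry the same 6 bases from position 2 on, and they also share the next base. They are shown as the miRNAs of that set with this seed, with bases 2 to 8 in capitals.
hsa-miR-1237-5p, chr11:64368651-64368671, plus strand: cGGGGGCGgggccgaagcgcg
hsa-miR-4488, chr11:61508599-61508616, plus strand: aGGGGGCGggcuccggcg

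The libraries held between 27937092 and 31790209 reads counted in genes. The labels of the lines were checked against markers. HOXB13, a transcription factor of prostate epithelium, had 5049 and 7866 normalized counts in the siNT1 libraries of PC3 cells and 2774 and 2282 in their siGGGGGC libraries at 24 and 48 h, and between 10.5 and 33.3 in HeyA8 cells. PAX8, a factor of Müllerian epithelium, had 4595 and 5284 normalized counts in the siNT1 libraries of HeyA8 cells and 2548 and 1977 in their siGGGGGC libraries. In each line, the lineage factor was therefore lower in both siGGGGGC libraries than in both siNT1 libraries, and its part in the results was not tested. KLK3, a marker of differentiated prostate, was at 0 in every library. The lines were not mixed. The 35 genes particular to HeyA8 mock cells summed in PC3 libraries to at most 0.171% of their sum in HeyA8 libraries, and the 45 genes particular to PC3 mock cells to at most 0.0623% the other way.

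Of the 8 libraries, the PC3 library of siGGGGGC at 24 h had the strongest trend on the GC content of transcripts. Relative to siNT1, the quintile of genes with the lowest GC content (30.2 to 40.1%) had a median log2 ratio of −0.603 in PC3 cells at 24 h, against −0.11 at 48 h and 0.132 and 0.113 in HeyA8 cells. GC content and transcript length together accounted for 38.2% of the variance between genes in PC3 cells at 24 h, 28.3% in HeyA8 cells at 24 h, and 7.78% and 4.53% at 48 h. Set against mock in place of siNT1, the same low-GC genes had a median of −0.648 in the PC3 siGGGGGC library at 24 h and −0.0492 in the PC3 siNT1 library, and −0.421 and −0.286 in the same libraries at 48 h. The trend was not particular to siGGGGGC, since the siCAG libraries outside the comparison had −1.15 in HeyA8 cells at 24 h and −0.606 in PC3 cells at 48 h. In HeyA8 cells at 24 h, the siNT1 library departed from mock (−0.121 in the lowest and 0.209 in the highest quintile) by more than the siGGGGGC library did (0.0111 and −0.0249). In these 2 libraries, PC3 siGGGGGC and HeyA8 siNT1 at 24 h, low-GC genes were lower than in their partners, and since the HeyA8 library is a control, both lower the PC3 minus HeyA8 difference of these genes. Medians of gene lists that moved by over 1.5 times or turned sign without one of them, or with offsets that removed the trends on GC content and length, are given with such values, with their range as each library was left out, or with a statement that the sign turned. When a library is left out, its partner of the same line and time no longer informs the difference. Such values therefore set 1 time point of a line against both time points of the other.

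No gene passed the test of the difference between the lines. Of 15393 genes tested, 0 (0%) had an adjusted p under 0.05 by edgeR's quasi-likelihood test with Benjamini-Hochberg adjustment, and the smallest adjusted p was 0.204. At an unadjusted p under 0.05, 397 genes (2.58%) had a response higher in PC3 cells and 1058 (6.87%) one lower in PC3 cells. The count of calls rested on the method. DESeq2 called 19 genes higher and 178 lower, limma voom called 0, and the fit without the PC3 siGGGGGC library at 24 h called 21 and 77, with the spread then taken from HeyA8 cells alone, whereas the fit without the HeyA8 siNT1 library at 24 h called 0. Among 10048 genes with at least 100 normalized counts on average in each line, 68 had a response at least 2-fold higher in PC3 cells and 559 one at least 2-fold lower.

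The excess of genes with a lower response in PC3 cells went with GC content. In the quintile with the lowest GC content, 554 genes (of 1951) were lower in PC3 cells at an unadjusted p under 0.05 and 6 were higher. In the quintile with the highest GC content (57.4 to 74.1%), 16 were lower and 78 were higher. The median difference was −0.469 on the log2 scale in the lowest quintile and 0.137 in the highest, while over all genes tested it was 0.00952. Longer transcripts were also lower, with a median of −0.216 in the quintile with the longest and 0.178 in that with the shortest transcripts. With the offsets for GC content and length, 576 of 13624 genes were higher and 709 lower at an unadjusted p under 0.05, with 0 calls, and 183 rather than 559 genes were at least 2-fold lower.

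Within each line, read from the same fit at an adjusted p under 0.05, 104 genes (0.676%) rose and 388 (2.52%) fell in PC3 cells, and 3 (0.0195%) rose and 49 (0.318%) fell in HeyA8 cells. The 3 genes that rose in HeyA8 cells also rose in PC3 cells. They were CTDSP2, a phosphatase of the RNA polymerase II tail, OXSR1, a stress-responsive kinase, and WEE1, the kinase that holds CDK1 inactive. In all, 47 genes were called in both lines, which was 90.4% of the calls in HeyA8 cells and 9.55% of those in PC3 cells, and all 47 moved in the same direction. The number of calls in a line moved with the libraries in the fit. Without the PC3 siGGGGGC library at 24 h, the HeyA8 calls came to 361 risen and 590 fallen genes and the PC3 calls to 390 and 973. Without the HeyA8 siNT1 library at 24 h, 0 genes were called in HeyA8 cells and 84 rose and 301 fell in PC3 cells. In bulk RNA, a lower count can come from fewer cells that express a gene or from less RNA in each cell, which cannot be told apart.

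Across the 10048 genes expressed in both lines, the responses of the lines had a Pearson correlation of 0.17 at 24 h and 0.683 at 48 h. The SD of the response across these genes at 24 h was 0.604 in PC3 cells and 0.364 in HeyA8 cells, and at 48 h it was 0.669 and 0.66. Genes are not independent replicates and share GC content and seed matches, so these values are a description. The lines were most unlike at 24 h, when the PC3 response was the wider one and carried the stronger trend on GC content.

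Genes with more seed matches had lower medians, which were close in the lines. Of 9755 genes expressed in both lines with an annotated 3′ UTR, the 619 with 3 or more matches had median log2 fold changes of −0.323 and −0.318 (PC3 and HeyA8 in that order). The 754 with 2 matches had −0.103 and −0.123, the 1782 with 1 match −0.0172 and −0.0142, and the 6600 without a match 0.0644 and 0.0677. With the offsets for GC content and length, the medians were −0.202 and −0.189 with 3 or more matches and −0.0463 and −0.0523 with 2. The median difference between the lines was between 0.0133 and 0.0539 in these 4 classes without the offsets. Read against siNT1 at each time point, the lines lay further apart. Genes with 3 or more matches stood at −0.133 in PC3 cells and −0.272 in HeyA8 cells at 24 h, and at −0.475 and −0.364 at 48 h. With mock in place of siNT1, the gap at 24 h was smaller, with −0.128 and −0.158, and the values at 48 h were −0.382 and −0.306. The siNT1 libraries at 24 h themselves stood at −0.00896 (PC3) and 0.124 (HeyA8) against mock.

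**Figure D1:**
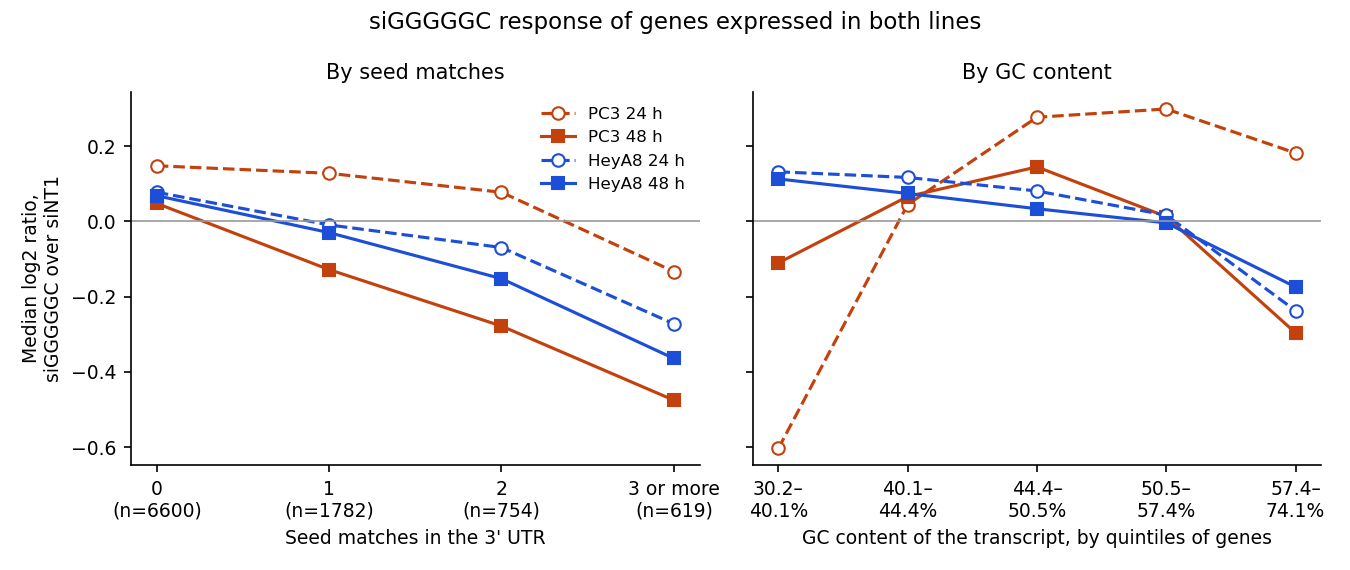
Median log2 ratio of siGGGGGC over siNT1 (vertical axis) in PC3 cells (red) and HeyA8 cells (blue) at 24 h (open circles) and 48 h (squares), by the number of seed matches in the 3′ UTR (left) and by quintiles of transcript GC content (right), over 9755 genes expressed in both lines. All 4 lines go down with the number of matches, to between −0.133 and −0.475, whereas in the lowest GC quintile PC3 cells at 24 h lie at −0.603 and HeyA8 cells above 0.

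The 10 targets that the study named showed the same. The study chose these genes for their fall in HeyA8 cells, in libraries that it lists as deposited apart from these, so a fall in HeyA8 cells is what they were chosen for. Its median log2 fold change was −1.75 in PC3 cells and −1.66 in HeyA8 cells, and the median difference was −0.0639, with 5 members above 0 and 5 below. At the level of calls, 7 of the 10 fell in PC3 cells, where 2.52% of all genes did, and 1, PES1, in HeyA8 cells, where 0.318% did. Leaving out 1 library at a time turned the sign of the difference for 9 of the 10, all but PES1, and moved the median difference between −0.536 and 0.54. The value was −0.536 without the PC3 siGGGGGC library at 24 h and 0.461 without the HeyA8 siNT1 library at 24 h. These values set 1 time point of a line against both of the other, and all 10 targets were further down at 48 h than at 24 h in both lines. Matched by time, the difference of each of the 10 had the same sign at 24 and 48 h, with 0.27 and 0.56 for EIF5A and −0.38 and −1.23 for HMGA1. The median difference was 0.006 at 24 h and −0.139 at 48 h.

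EIF5A, a translation factor at chr17:7306999-7312463, had 14235 and 14523 normalized counts in the PC3 siNT1 libraries at 24 and 48 h and 6722 and 2754 in the siGGGGGC libraries. In HeyA8 cells the siNT1 libraries had 38871 and 39800 and the siGGGGGC libraries 15184 and 5129. In both lines the siGGGGGC libraries were lower than the siNT1 libraries and lower at 48 h than at 24 h, and the log2 difference between the lines was 0.42 ± 0.58 (SE), which was −0.244 without the PC3 siGGGGGC library at 24 h and 1.22 without the HeyA8 siNT1 library at 24 h. POLR2E, a subunit shared by the nuclear RNA polymerases, went from 3119 and 3680 to 1234 and 698 in PC3 cells and from 5515 and 5490 to 2080 and 1022 in HeyA8 cells. Its log2 fold changes of −1.87 ± 0.33 and −1.91 ± 0.33 left a difference of 0.05 ± 0.45.

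PES1, a ribosome assembly factor, had 3263 and 3367 normalized counts with siNT1 and 1475 and 1182 with siGGGGGC in PC3 cells, and 5240 and 5405 against 1884 and 978 in HeyA8 cells. It fell in both lines (adjusted p = 0.0427 and 0.0332), and its difference was 0.64 ± 0.36. That difference ranged from 0.148 to 1.14 as each library was left out. HMGA1, a chromatin protein, had 23277 and 31200 with siNT1 and 8632 and 3341 with siGGGGGC in PC3 cells, and 51138 and 63628 against 24644 and 15993 in HeyA8 cells. All 4 siGGGGGC libraries were below the siNT1 libraries of their line. Its difference of −0.80 ± 0.56 was the lowest of the 10, and TGM2, a transglutaminase, had the highest, 1.06 ± 0.69. The SEs of the 10 differences ran from 0.35 to 0.69, where a 2-fold difference is 1 on this scale.

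The genes called in PC3 cells divided by seed match in how HeyA8 cells responded. Of the genes that fell in PC3 cells, 337 had an annotated 3′ UTR and at least 100 normalized counts in each line. The 120 with 2 or more matches were at a median of −1.49 on the log2 scale in PC3 cells and at −1.36 in HeyA8 cells, where 117 were lower and 83 at least 2-fold lower. The 155 without a match had −1.37 in PC3 cells and −0.00468 in HeyA8 cells, where 78 were lower and 6 at least 2-fold lower. The 62 with 1 match lay between, at −1.26 and −0.353. Of all 9755 genes under the same filters, 4535 were lower in HeyA8 cells and 314 at least 2-fold lower. These counts were 886 and 172 of the 1373 with 2 or more matches, and 2723 and 84 of the 6600 without a match. The PC3 values are those by which these genes were chosen and are a description.

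The genes that fell in PC3 cells without a match had a median GC content of 38.1%, and those with 2 or more matches had 59.2%, so match and GC content moved together. With the offsets for GC content and length, the median difference between the lines was −0.803 for those without a match and −0.241 for those with 2 or more. The balance of the 2 groups moved with the library left out. With all libraries the genes that fell in PC3 cells were 181 without and 193 with a match, and with the offsets for GC content and length 336 and 389. Without the PC3 siGGGGGC library at 24 h they were 388 and 560. Without the PC3 siGGGGGC library at 48 h they were 751 and 287, and without the PC3 siNT1 library at 48 h 568 and 197, with HeyA8 medians of 0.0477 and 0.0637 over the fallen genes. Of the 47 genes that fell in HeyA8 cells and met the same filters, 0 had no match, 7 had 1 and 40 had 2 or more. Of all 9755 genes under these filters, 67.7%, 18.3% and 14.1% did. The 47 genes had medians of −1.84 in HeyA8 cells and −1.54 in PC3 cells. MYH9, the heavy chain of non-muscle myosin, with 4 matches, went from 35921 and 33241 to 12565 and 6970 in PC3 cells and from 48435 and 36867 to 14566 and 8725 in HeyA8 cells, a difference of 0.02 ± 0.29. ARHGDIA, with 3 matches, fell in both, with log2 fold changes of −2.66 and −2.59. MYH9 and ARHGDIA were named after their values were seen, as genes that fell in both lines.

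**Figure D2:**
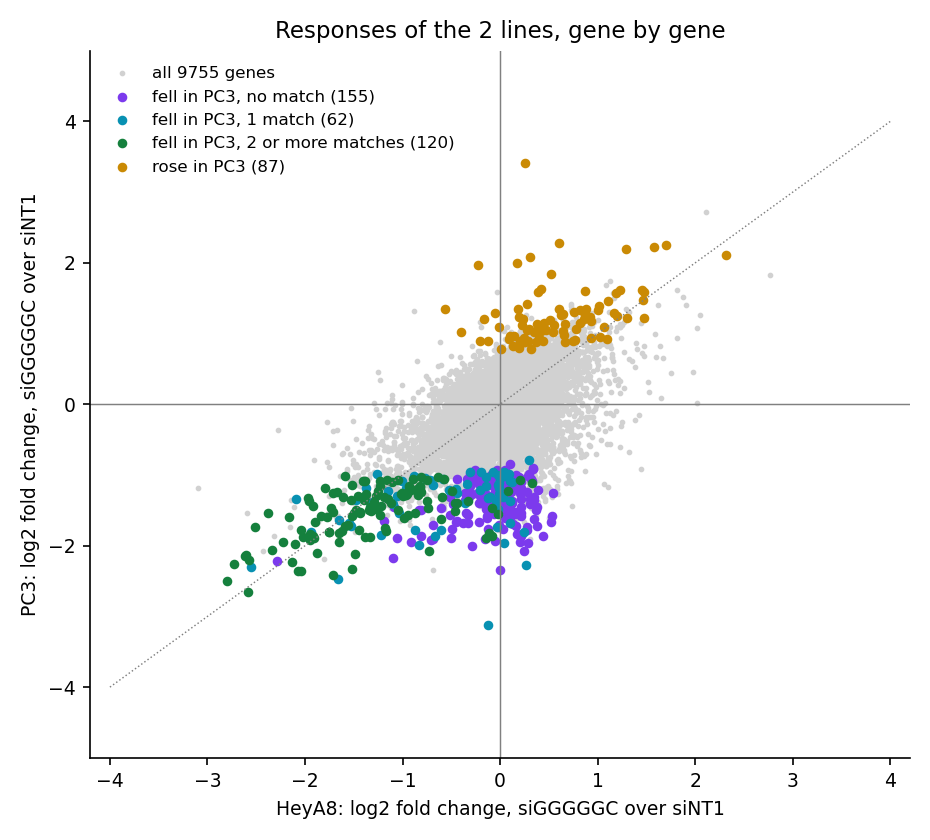
Log2 fold change of siGGGGGC over siNT1 in HeyA8 cells (horizontal) and PC3 cells (vertical) for 9755 genes expressed in both lines, with equality as a dotted line. Genes that fell in PC3 cells with 2 or more seed matches (green, 120) lie near the dotted line, whereas those without a match (purple, 155) gather around 0 in HeyA8 cells.

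Of the genes expressed in both lines, the 10 with the smallest p and a response higher in PC3 cells were ID1, ADM, ANGPTL4, HOXA10, BDNF, HK2, TUBB6, TBX3, PFKFB3 and CBX6. None of them passed the adjusted threshold for the difference (edgeR adjusted p of 0.296 or more). The rule took genes with 1 sign at both time points, so their direction without 1 library was largely fixed by the choice. Of these 10 and the 10 lower in PC3 cells given below, DESeq2 called 19 and the fit without the PC3 siGGGGGC library at 24 h called 16, whereas that without the HeyA8 siNT1 library at 24 h called 0.

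ADM encodes adrenomedullin, a peptide hormone that dilates vessels (chr11:10304980-10307402). It had 189 and 175 normalized counts in the PC3 siNT1 libraries at 24 and 48 h and 612 and 835 in the siGGGGGC libraries. In HeyA8 cells it had 2099 and 2180 with siNT1 and 1483 and 2251 with siGGGGGC. It rose in PC3 cells by 1.97 ± 0.25 on the log2 scale (adjusted p = 0.0183), the HeyA8 libraries of the 2 siRNAs overlapped, and the difference was 2.20 ± 0.34. ANGPTL4 encodes a secreted inhibitor of lipoprotein lipase (chr19:8364127-8374375). It had 313 and 237 with siNT1 and 1871 and 4512 with siGGGGGC in PC3 cells, and 678 and 479 against 665 and 698 in HeyA8 cells. Its difference was the largest of the 10, 3.16 ± 0.54, and was 2.87 without the HeyA8 siNT1 library at 24 h and 2.36 with mock as the control.

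ID1 encodes an inhibitor of basic helix-loop-helix factors and is a target of BMP signalling (chr20:31605283-31606514). It had 5325 and 1544 with siNT1 and 11003 and 4807 with siGGGGGC in PC3 cells, and 3740 and 1323 against 2298 and 991 in HeyA8 cells. At each time point it was higher with siGGGGGC in PC3 cells and lower in HeyA8 cells, although the libraries of the 2 siRNAs overlapped across times in both lines. HK2, the hexokinase of many tumours, had 3672 and 4930 with siNT1 and 6018 and 12301 with siGGGGGC in PC3 cells, and 4172 and 4532 against 3443 and 3168 in HeyA8 cells. The groups did not overlap in either line, and the difference was 1.41 ± 0.28. It rose in PC3 cells (adjusted p = 0.0435) and did not pass in HeyA8 cells (adjusted p = 0.403). PFKFB3, which makes the activator of phosphofructokinase, had 1333 and 1973 with siNT1 and 2546 and 6139 with siGGGGGC in PC3 cells, and between 4005 and 4668 in all 4 HeyA8 libraries.

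HOXA10, a homeodomain factor, had 514 and 535 with siNT1 and 2335 and 2760 with siGGGGGC in PC3 cells, and 464 and 366 against 632 and 618 in HeyA8 cells, a difference of 1.68 ± 0.29. BDNF, a neurotrophin (1.36 ± 0.27), and TUBB6, a beta-tubulin (1.10 ± 0.22), also rose in PC3 cells. TBX3, a T-box repressor, passed in neither line, with 0.55 ± 0.17 in PC3 cells and −0.61 ± 0.18 in HeyA8 cells. CBX6, a Polycomb protein whose transcript has 9 seed matches, was the one gene of the 10 that fell in HeyA8 cells (adjusted p = 0.0327). It had 3938 and 3470 with siNT1 and 1561 and 1346 with siGGGGGC there, and 2484 and 3253 against 1847 and 2656 in PC3 cells.

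The 10 with a response lower in PC3 cells included ARHGAP29, TFPI, CCDC14, MAP4K3, KLF12, GEN1, BRIP1, BRCA1 and MKI67. All 10 fell in PC3 cells and none passed in HeyA8 cells. ARHGAP29, a GTPase-activating protein (chr1:94168907-94237751), had 24658 and 17488 with siNT1 and 7450 and 5343 with siGGGGGC in PC3 cells, and 6585 and 7493 against 8784 and 9490 in HeyA8 cells. The groups did not overlap in either line and moved in opposite directions. Its difference, −2.10 ± 0.22, had the smallest p of all genes (adjusted p = 0.204), and was −1.42 with the offsets for GC content and length. TFPI, the inhibitor of the tissue factor pathway of clotting (chr2:187464231-187554492), had 1010 and 660 with siNT1 and 178 and 161 with siGGGGGC in PC3 cells, and 2287 and 4559 against 2481 and 6028 in HeyA8 cells.

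BRCA1, a factor of homologous recombination (chr17:43044295-43125483), had 1345 and 796 with siNT1 and 429 and 244 with siGGGGGC in PC3 cells, and 1922 and 1654 against 2408 and 1513 in HeyA8 cells. It fell by 1.68 on the log2 scale in PC3 cells, while the HeyA8 groups overlapped. BRIP1, its partner helicase, had a difference of −1.83 ± 0.28, and GEN1, a resolvase of Holliday junctions, one of −2.19 ± 0.33. MKI67, the coat of mitotic chromosomes and a marker of cycling cells (chr10:128096661-128126204), had 10251 and 9283 with siNT1 and 4491 and 3428 with siGGGGGC in PC3 cells, and between 24344 and 26405 in all 4 HeyA8 libraries. CCDC14, a centrosomal protein, MAP4K3, a kinase, and KLF12, a repressor, had differences of −2.01, −1.79 and −2.05. With the offsets for GC content and length, the differences of these 10 genes stayed below 0, at −1.21 for MKI67, −1.51 for BRCA1 and −1.18 for BRIP1.

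**Figure D3:**
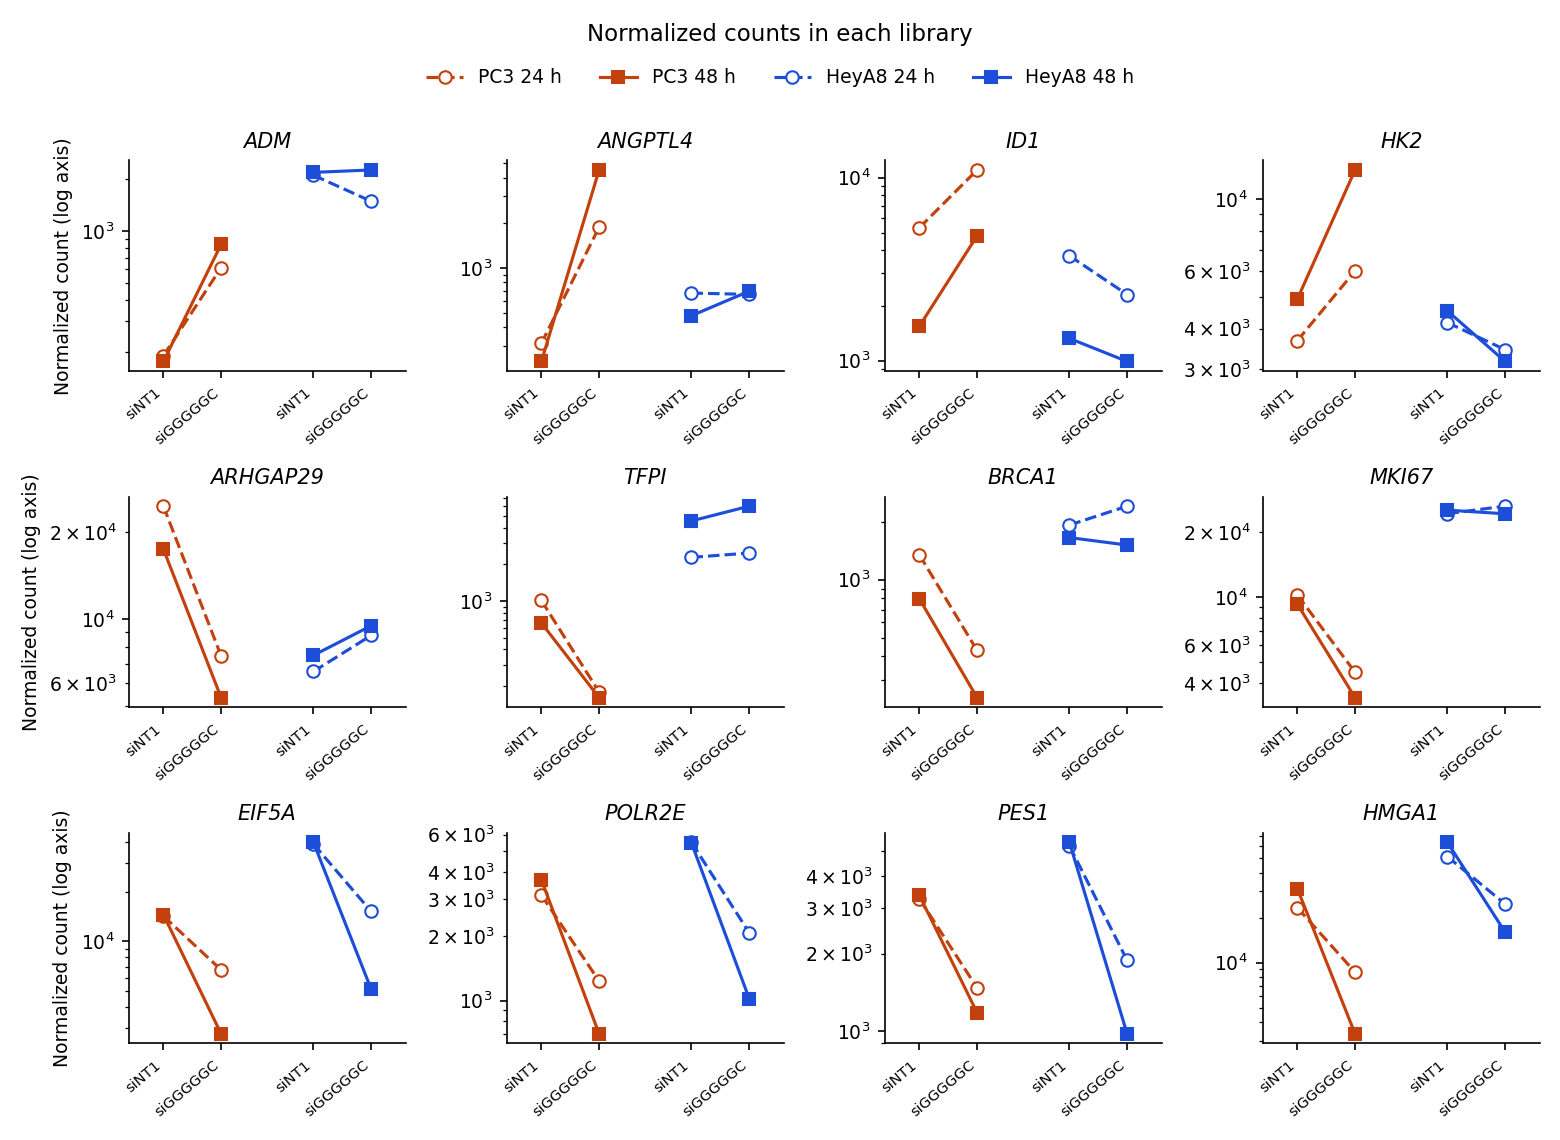
Normalized counts (log axis, which does not start at 0) in each of the 8 libraries for 12 genes, with siNT1 joined to siGGGGGC in PC3 cells (red) and HeyA8 cells (blue) at 24 h (open circles, dashed) and 48 h (squares). In the upper row the counts go up with siGGGGGC in PC3 cells (ADM from 189 and 175 to 612 and 835), in the middle row they go down in PC3 cells (BRCA1 from 1345 and 796 to 429 and 244), and in the lower row, the seed-matched targets, they go down in both lines.

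The genes of glycolysis and of the response to low oxygen were the list with the most members higher in PC3 cells. Of 38 members tested, 33 were expressed in both lines, with at least 100 normalized counts on average in each. Of these 33, 13 were higher in PC3 cells and 1 lower at an unadjusted p under 0.05, where 2.32% and 8.23% of the 10048 genes expressed in both lines were, and 30 differences were above 0, against 5227 of 10048. Over the 38 the median difference was 0.559, where the PC3 median was 0.835 and the HeyA8 median 0.243. In PC3 cells the median was 0.601 at 24 h and 1.13 at 48 h, and in HeyA8 cells 0.0271 and 0.417. At both time points the difference was above 0 in 25 of the 38 members, against 33.2% of all genes tested. The median difference was 0.791 without the PC3 siGGGGGC library at 24 h, 0.348 without the HeyA8 siNT1 library at 24 h, 0.252 with mock as the control and 0.501 with the offsets for GC content and length. It stayed between 0.258 and 0.791 when each library was left out in turn.

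Of these members, 11 rose in PC3 cells, where 0.676% of all genes did, and none in HeyA8 cells, where 0.0195% did. Those that rose were a glucose transporter, enzymes of some steps of glycolysis, LDHA, ADM and ANGPTL4, whereas GPI, ALDOA, GAPDH, PGAM1 and PKM, of other steps, did not pass. Of these, GAPDH, PGAM1 and PKM lay just short of the threshold in PC3 cells. Their log2 fold changes there were 0.70, 0.91 and 0.67 (edgeR adjusted p of 0.0545, 0.0568 and 0.0568). SLC2A1, the main glucose transporter, had 2527 and 2987 normalized counts with siNT1 and 6216 and 15560 with siGGGGGC in PC3 cells, and 5397 and 6420 against 5744 and 12400 in HeyA8 cells. It was high at 48 h in both lines, so that its difference, 1.32 ± 0.42, was smaller than its rise of 1.84 ± 0.31 in PC3 cells. HK2 and PFKFB3 are given above, and PFKP, a phosphofructokinase, rose by 1.19 in PC3 cells against 0.52 in HeyA8 cells. Of the later steps, TPI1, PGK1, ENO1 and ENO2 rose in PC3 cells. ENO1, an enolase, had 68907 and 92808 with siNT1 and 104410 and 184880 with siGGGGGC in PC3 cells, and 93583 and 112760 against 102560 and 135130 in HeyA8 cells. LDHA, which makes lactate, had 44101 and 65413 with siNT1 and 67935 and 132340 with siGGGGGC in PC3 cells, and 44446 and 56273 against 46335 and 64648 in HeyA8 cells, a difference of 0.69 ± 0.22. ALDOA, the aldolase, had a difference of 0.03 ± 0.24, and GAPDH one of 0.52 ± 0.22.

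Of the regulators and targets of the oxygen response, ADM and ANGPTL4 rose in PC3 cells, whereas HIF1A, the oxygen-regulated factor itself, fell. HIF1A had 16951 and 10067 with siNT1 and 6580 and 6374 with siGGGGGC in PC3 cells, and 5502 and 4497 against 6236 and 5913 in HeyA8 cells. It was the lowest of the 38 differences, at −1.30 ± 0.29, and was −0.82 with the offsets for GC content and length. The protein it encodes is controlled mainly after translation and was not measured. EGLN1, the prolyl hydroxylase that marks it for decay, had a difference of 0.71 ± 0.28, or 1.21 with the offsets. VEGFA, BNIP3L and NDRG1, which are further targets of low oxygen, had −0.41 ± 0.37, −0.56 ± 0.52 and 0.07 ± 0.30. HIF1A, VEGFA and BNIP3L were the only 3 of the 38 members with a difference below 0. BNIP3, MXI1 and P4HA2, on the other side, had 0.69 ± 0.56, 0.76 ± 0.34 and 0.48 ± 0.37. SLC2A3, a second glucose transporter, was at 0 in both PC3 siNT1 libraries and had 2.79 and 1.9 counts with siGGGGGC, so its response in PC3 cells cannot be read.

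**Figure D4:**
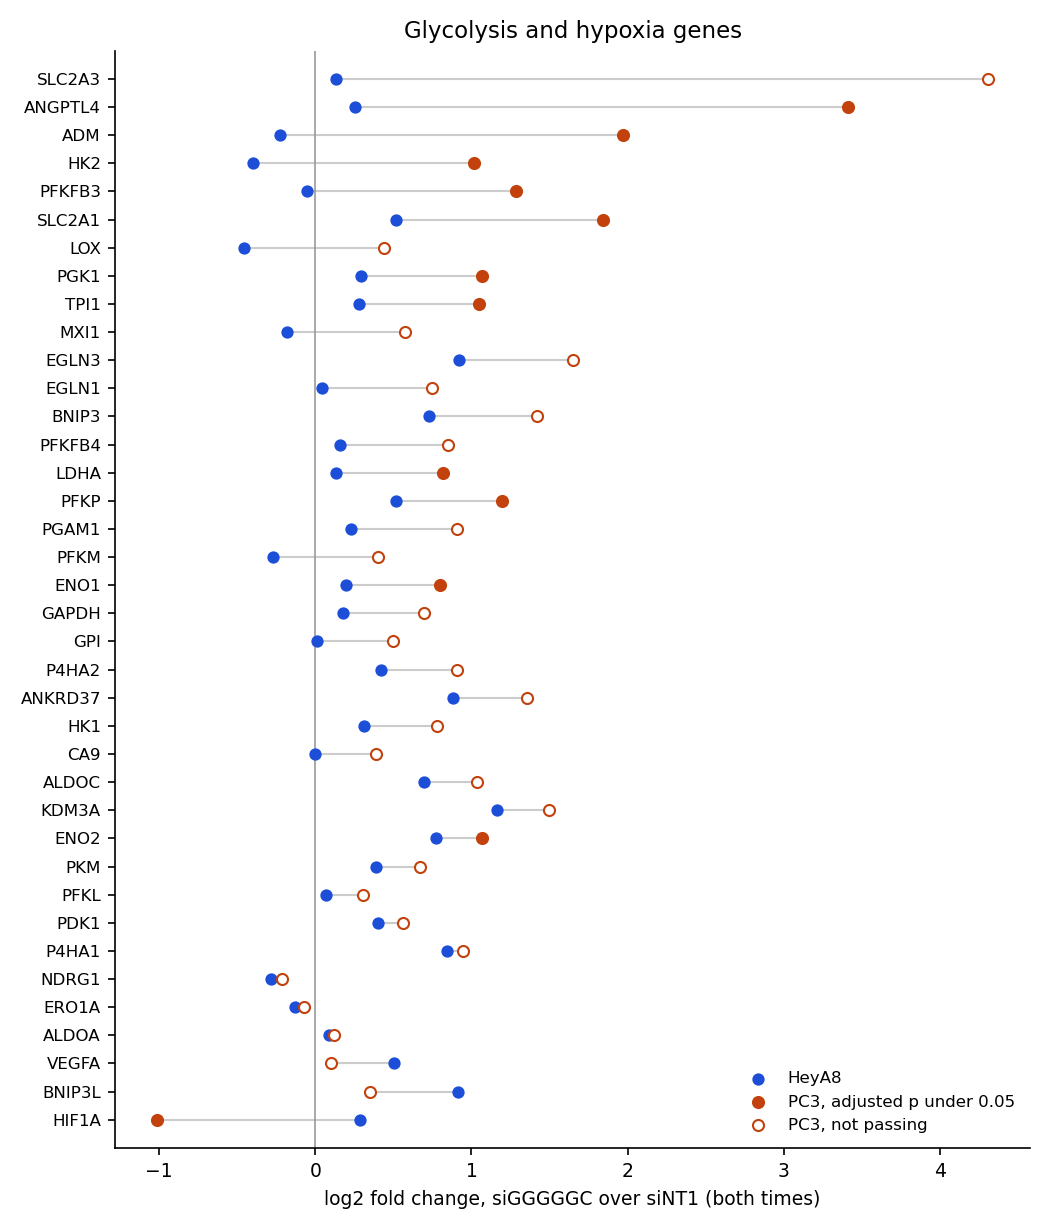
Log2 fold change of siGGGGGC over siNT1, both time points together, for the 38 members of the glycolysis and hypoxia list in HeyA8 cells (blue) and PC3 cells (red, filled where the adjusted p was under 0.05), ordered by the difference between the lines. PC3 lies to the right of HeyA8 for 35 members, and HIF1A lies furthest to the left. SLC2A3 is plotted at 4.31 in PC3 cells but rests on fewer than 3 normalized counts in each PC3 library.

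The promoters of these genes were searched for the core of the hypoxia response element, ACGTG or GCGTG on either strand, in RefSeq sequences (GRCh38.p14) from 250 bases before to 50 after the start site. On the printed strand the motif can read CACGT or CACGC, and ACGTG and CACGT can overlap. The core was in 25 of 34 list members with a sequence (73.5%), against 62.0% of the promoters of 11069 genes tested and 65.7% of those expressed in both lines. It was in 10 of the 13 members higher in PC3 cells at an unadjusted p under 0.05 and in 15 of the other 21. The share in these members was thus close to that of the rest of the list. A match is a description of letters in this window and not a site of binding. The windows below, with the core in capitals, are from ADM, PFKFB3 and LDHA, which were printed as members from the hormone, regulatory and lactate ends of the list.
ADM, chr11:10304960-10304988, plus strand: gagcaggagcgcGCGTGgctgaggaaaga
PFKFB3, chr10:6144741-6144769, plus strand: ggcggcccggccCACGCcccggcttcccc
LDHA, chr11:18394366-18394394, plus strand: agactcccagcgCACGTggagcagtctgc

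The genes of mitosis formed the list with the most members lower in PC3 cells. Of 55 members, 17 were lower and 0 higher at an unadjusted p under 0.05, against 6.87% and 2.58% of all genes, with a median difference of −0.423. Their median was −0.156 in PC3 cells and 0.278 in HeyA8 cells. In PC3 cells KIF11, KIF14 and KIF15, which are motors of the spindle, NUF2, a kinetochore protein, and MKI67 fell, and BIRC5, a member of the chromosomal passenger complex, rose. KIF14 had 2603 and 874 with siNT1 and 296 and 300 with siGGGGGC in PC3 cells, and 2432 and 2725 against 3068 and 2146 in HeyA8 cells. TOP2A, the topoisomerase that untangles chromosomes, had 10356 and 5955 against 4605 and 5376 in PC3 cells and 17911 and 20768 against 27748 and 30941 in HeyA8 cells, and passed in neither line. The list's median GC content was 41.9%, and 28.4% and 9.99% of the genes in the lowest and the next GC quintile were lower in PC3 cells. With the offsets, 17 members were lower and 0 higher, where 709 and 576 of 13624 genes were. These were not the same 17, since CDK1, ASPM and SGOL2 no longer passed an unadjusted p under 0.05. The median difference was −0.271 with the offsets. It was −0.328 without the PC3 siGGGGGC library at 24 h, −0.331 without the HeyA8 siNT1 library at 24 h and −0.609 with mock as the control. As each library was left out, it ranged from −0.625 to −0.234.

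Of 55 genes of DNA replication and other E2F targets, 5 were lower and 0 higher in PC3 cells, or 9.09% against 9.45% of all genes in either direction, with a median of −0.0995 that ranged from −0.476, without the PC3 siGGGGGC library at 24 h, to 0.265 as each library was left out. The difference was 0.191 at 24 h and −0.342 at 48 h. RRM2, a subunit of ribonucleotide reductase, rose in PC3 cells by 0.93 and stood at 1.10 in HeyA8 cells, where it did not pass.

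Genes of protein synthesis and turnover had small differences of the same direction. Of 80 cytosolic ribosomal proteins, 78 had a difference above 0, against 5227 of the 10048 genes expressed in both lines, with a median of 0.284. At an unadjusted p under 0.05, 3 (3.75%) were higher in PC3 cells and 0 lower, against 2.32% and 8.23% of those 10048 genes. The median response of the ribosomal proteins was 0.199 in PC3 cells and −0.105 in HeyA8 cells. RPS2, one of the 3, had 21143 and 20516 with siNT1 and 27085 and 22984 with siGGGGGC in PC3 cells, and 77340 and 65613 against 54383 and 51356 in HeyA8 cells. The median fell to 0.163 without the PC3 siGGGGGC library at 24 h and to 0.118 with the offsets for GC content and length. These are short transcripts, and the quintile of all genes with the shortest transcripts had a median of 0.178. Mitochondrial ribosomal proteins (75 members, median 0.264), respiratory chain subunits (77, 0.286), proteasome subunits (44, 0.294), RNA polymerase subunits (31, 0.264) and splicing factors (61, 0.244) lay in the same range. At an unadjusted p under 0.05, at most 2 members in each were higher in PC3 cells and 0 lower, against 2.58% and 6.87% of all genes. Without the PC3 siGGGGGC library at 24 h, the medians of the mitochondrial ribosomal proteins, RNA polymerase subunits and splicing factors were 0.138, 0.121 and 0.156. With the offsets, those of the mitochondrial ribosomal proteins and the respiratory chain were 0.15 and 0.157. With the offsets, under which 576 of 13624 genes were higher in PC3 cells, the counts came to 11 splicing factors, 7 respiratory chain subunits, 5 mitochondrial ribosomal proteins, 5 proteasome subunits and 2 RNA polymerase subunits, all higher in PC3 cells. The count of cytosolic ribosomal proteins went the other way, from 3 to 1.

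Ribosome biogenesis factors had a median of 0.31, which was 0.117 without the PC3 siGGGGGC library at 24 h and 0.474 without the HeyA8 siNT1 library at 24 h. Of 62, 5 (8.06%) were higher and 1 (1.61%) lower at an unadjusted p under 0.05, where 2.32% and 8.23% of the genes expressed in both lines were, and 7 were higher and 0 lower with the offsets. Among the 5 was BOP1, the partner of PES1, with 0.74 ± 0.25. With the offsets BOP1 was at 0.46 and no longer passed an unadjusted p under 0.05. Initiation factors had a median of 0.157, and 0.0602 without the PC3 siGGGGGC library at 24 h. This median ranged from 0.0417 to 0.269 as each library was left out. Of the 40, 2 were higher and 1 lower at an unadjusted p under 0.05, and 5 and 0 with the offsets. Among chaperones, 6 of 39 were higher in PC3 cells, against 2.58% of all genes, with a median of 0.3 that ranged from 0.0948 to 0.472 as each library was left out, and 4 of the 6, CCT3, CCT4, CCT5 and CCT7, are subunits of the chaperonin that folds actin and tubulin. CCT7 had 9242 and 10250 with siNT1 and 13733 and 16157 with siGGGGGC in PC3 cells, and between 17454 and 20129 in the HeyA8 libraries. SF3A2, a splicing factor with 1 match, fell in both lines, with −1.34 in PC3 cells and −2.09 in HeyA8 cells. FASN, the fatty acid synthase, with 5 matches, fell in both, with −1.37 and −1.96, within a list of sterol and fatty acid genes whose median difference was 0.193 and of which 0 of 37 passed an unadjusted p under 0.05. This median was −0.0569 without the PC3 siGGGGGC library at 24 h and −0.132 with mock as the control. ATP6V0C, a subunit of the lysosomal proton pump, fell in both lines, with −2.06 and −2.34, within 56 lysosomal genes with a median difference of 0.0683, or 0.00389 without the PC3 siGGGGGC library at 24 h.

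**Figure D5:**
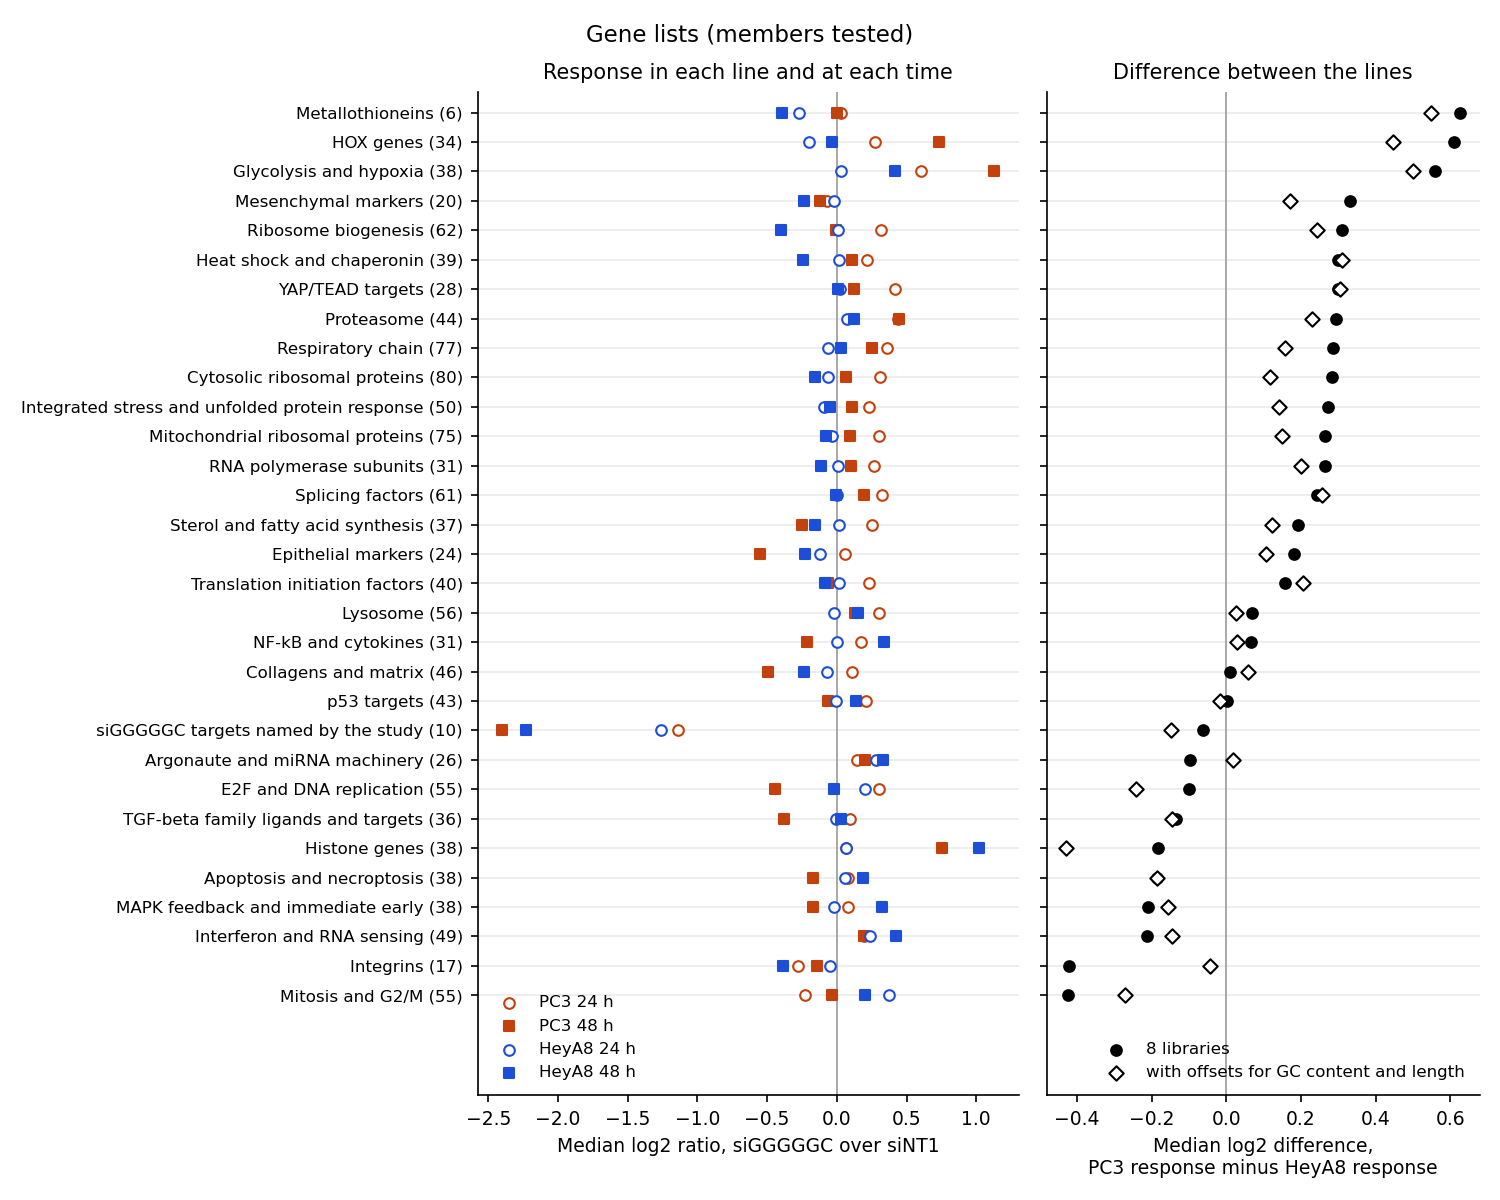
Median over the members of each of 31 gene lists, with the number of members tested in parentheses. Left, median log2 ratio of siGGGGGC over siNT1 in PC3 cells (red) and HeyA8 cells (blue) at 24 h (circles) and 48 h (squares). Right, median difference between the lines with all 8 libraries (filled) and with the offsets for GC content and length (diamonds). The filled symbols run from −0.423 for mitosis to 0.626 for 6 metallothioneins, of which 2 were expressed in both lines. The diamonds run from −0.429 for histones to 0.548 for metallothioneins. Over all genes tested the median difference was 0.00952.

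Lists tied to death, damage and inflammation were counted over the members expressed in both lines, against the 2.32% higher and 8.23% lower of all such genes. Of 33 p53 targets, 2 were higher and 2 lower (6.06% each), and the median over all 43 tested was 0.00286, with a range from −0.154 to 0.108 as each library was left out. PLK2, a kinase, and DRAM1, a factor of autophagy, were the higher ones, with 0.87 ± 0.23 and 0.78 ± 0.29. FAS, a death receptor at chr10:88990531-89015785 with 2 seed matches, had 203 and 154 with siNT1 and 71.5 and 31.3 with siGGGGGC in PC3 cells, and 2704 and 1949 against 2391 and 1955 in HeyA8 cells. It fell in PC3 cells (adjusted p = 0.0269), with a difference of −1.77 ± 0.35. CDKN1A, the p21 inhibitor of cyclin kinases, had 1344 and 845 against 839 and 258 in PC3 cells and 13131 and 11750 against 8699 and 11756 in HeyA8 cells, and passed in neither line. Of 32 apoptosis genes 3 (9.38%) were lower and 0 higher, which were FAS, BIRC3 and PMAIP1. The median over all 38 tested was −0.186, with a range from −0.314 to 0.0273 as each library was left out. PMAIP1, which antagonizes MCL1, had −0.59 in PC3 cells and 0.92 in HeyA8 cells.

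Of 32 genes of interferon signalling and RNA sensing expressed in both lines, 3 (9.38%) were lower and 0 higher. The median difference over all 49 tested was −0.212, or 0.0455 with mock as the control. It was −0.136 without the HeyA8 siNT1 library at 24 h and ranged from −0.252 to −0.0705 as each library was left out. DDX58, the RIG-I sensor of double-stranded RNA, had 547 and 423 with siNT1 and 428 and 349 with siGGGGGC in PC3 cells, and 255 and 275 against 343 and 661 in HeyA8 cells. IFI44 had a difference of −1.47 ± 0.38 and PARP14, an ADP-ribosyltransferase, one of −0.98 ± 0.27. OAS1, OAS2 and TLR3 were also lower at an unadjusted p under 0.05 but cannot be read in both lines, since OAS1 and OAS2 had at most 8.6 normalized counts in the HeyA8 libraries and TLR3 at most 3.8 in the PC3 siGGGGGC libraries. Of 20 NF-kB and cytokine genes expressed in both lines 1, BIRC3, was lower. Outside these 20, PTGS2, the inducible cyclooxygenase, fell in PC3 cells, from 251 and 99.4 to 92 and 16.1, while HeyA8 libraries held at most 17.9. Among 50 genes of the integrated stress and unfolded protein response the median was 0.271, or 0.147 without the PC3 siGGGGGC library at 24 h, 0.0956 at 48 h alone and 0.141 with the offsets. SLC7A11, the cystine transporter, had −1.12 in PC3 cells and 1.06 in HeyA8 cells. HSP90B1 and CREB3L2, of the endoplasmic reticulum, fell in PC3 cells. Of 26 Argonaute and miRNA factors, all expressed in both lines, 3 (11.5%) were lower, against 8.23% of such genes, and with the offsets 1 was lower and 2 higher. XRN1, the exonuclease that degrades decapped messages, fell in PC3 cells, from 1329 and 751 to 197 and 286, while HeyA8 libraries went from 2467 and 2690 to 3001 and 3126, a difference of −2.32 ± 0.44 that was −1.57 with the offsets.

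Lists of growth factor signalling and adhesion held members on both sides. They too were counted over the members expressed in both lines, against 2.32% higher and 8.23% lower of all such genes. Of 20 TGF-beta family genes, 3 (15%) were higher, SMAD7, ID1 and ID3, and 2 (10%) lower, and the median over all 36 tested ranged from −0.292 to 0.183 as each library was left out. SMAD7, an inhibitor of the pathway, ID1, ID3 and FSTL1 rose in PC3 cells. SMAD7 had 99.1 and 50.2 with siNT1 and 259 and 319 with siGGGGGC in PC3 cells, and 495 and 277 against 613 and 282 in HeyA8 cells, a difference of 1.83 ± 0.48. Of 28 genes of MAPK feedback and immediate early response 2 (7.14%) were higher and 6 (21.4%) lower, and the median difference over all 38 tested was 0.236 at 24 h and −0.587 at 48 h, with a range from −0.338 to 0.0824 as each library was left out. DUSP1, a phosphatase of MAP kinases, rose in PC3 cells from 786 and 510 to 1668 and 1282, and DUSP5, another, went from 3814 and 5944 to 3665 and 2659 in PC3 cells and from 6067 and 6001 to 7466 and 10368 in HeyA8 cells. ETV4, with 2 matches, fell in PC3 cells, with −1.61 there and −0.99 in HeyA8 cells. Of 24 YAP/TEAD targets 2 (8.33%), FJX1 and IGFBP3, were higher and 3 (12.5%), ASAP1, TEAD1 and WWTR1, lower, and CTGF, CYR61, AJUBA and CRIM1 rose in PC3 cells. CTGF went from 1173 and 1168 to 3128 and 9252 in PC3 cells and from 16453 and 13137 to 24639 and 52434 in HeyA8 cells, the same direction in both.

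Among 17 integrins the median difference was −0.421, and ITGA1, ITGA2 and ITGA5 fell in PC3 cells. This median was −0.044 with the offsets for GC content and length, 0.0584 without the PC3 siGGGGGC library at 24 h and −0.0586 without the HeyA8 siNT1 library at 24 h. ITGA5, the fibronectin receptor, with 2 matches, went from 2669 and 3649 to 784 and 658 in PC3 cells and from 9445 and 10778 to 3986 and 3254 in HeyA8 cells. Of 34 HOX genes only 3 had at least 100 normalized counts in each line, and several, such as HOXA9 and HOXA4, passed the filter through the line where they are high, so nothing is read from a count over the list. HOXA10, HOXA11 and HOXA13 rose in PC3 cells. HOXD4, of the HOXD cluster, had a difference of 1.38 ± 0.42. HOXA11 went from 538 and 656 to 2268 and 2950 in PC3 cells and was at 0 in all 4 HeyA8 libraries, so it has no response to compare there. In all, 26 genes called in PC3 cells had under 10 normalized counts on average in HeyA8 cells, and none called in HeyA8 cells was that low in PC3 cells.

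Of 10 mesenchymal markers expressed in both lines 1, SNAI2, was higher and 1, ZEB1, lower (10% each), and the median over all 20 tested was 0.331, or 0.17 with the offsets, with a lowest value of 0.143 as each library was left out. ZEB1, a repressor of epithelial genes, had 1310 and 470 with siNT1 and 182 and 285 with siGGGGGC in PC3 cells and between 4464 and 5126 in HeyA8 cells, and SNAI2, another, had 1248 and 975 against 1234 and 593 in PC3 cells and 852 and 535 against 313 and 54.8 in HeyA8 cells. None of these passed in either line. Collagens and matrix (46 members, median 0.00976), histones (38, −0.182), epithelial markers (24, 0.182) and metallothioneins (6, 0.626) had at most 3 members each at an unadjusted p under 0.05. These were 6.52%, 5.26%, 12.5% and 0% of the members in either direction, against 9.45% of all genes. The medians of the collagens, the histones and the epithelial markers turned sign as libraries were left out. Few members of some lists were expressed in both lines, with 10 of the integrins, 10 of the mesenchymal markers, 7 of the epithelial markers, 2 of the histones and 2 of the metallothioneins. The sign of the median was the same in all 22 settings tried for 15 of the 31 lists. Among the genes named within lists, those called within a line were chosen after their values were seen.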

How the data were processed

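Per the labels and the study's methods, the authors trimmed paired-end reads, aligned them to hg38 with STAR or Tophat, and deposited whole-number counts of exonic reads per gene made with HTSeq. Gene positions are those of the deposited table. Counts were fitted with edgeR 4.0.16 in R 4.3.3 (TMM normalization, filterByExpr by line and siRNA, quasi-likelihood test) on 8 libraries, with 4 line by time blocks and 1 siGGGGGC effect per line, which left 2 residual degrees of freedom. Values after ± are SEs of log2 values from this fit, from the estimate and its F statistic. Normalized counts were scaled to the mean effective library size of the 8 libraries, and in the account of the markers to that of all 16. Values at 1 time point used a pseudocount of 1. Seed matches, GC content and length came from GENCODE v44 protein-coding transcripts. The offsets were splines on GC content (5 df) and log length (4 df). limma 3.58.1 and DESeq2 1.42.0 were alternatives. The methods of the study give a higher dose than the labels, and duplicates, whereas the table has 1 library per condition and time. Genes named were the 10 with the smallest p in each direction, expressed in both lines with 1 sign at both times, the study's targets, and list members that were called or abundant. The members and lists were chosen with earlier results of these data known. Some genes that the rules chose are not reported here. Counting list members only where expressed in both lines was chosen after the data were seen. Steps were tested on simulated data.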

Additional observations from a re-analysis of the deposited data

Results flagged for a closer look

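In 6 lists the median response had one sign in PC3 cells and the opposite one in HeyA8 cells, at each time point. The difference between the lines was not tested for any list. For mitosis and G2/M, PC3 cells stood at −0.231 and −0.0356 at 24 and 48 h and HeyA8 cells at 0.376 and 0.203. The median difference was −0.423 for this list, or −0.271 with the offsets, and ranged from −0.625 to −0.234 as each library was left out. It was 0.284 for cytosolic ribosomal proteins, 0.264 for mitochondrial ribosomal proteins, 0.271 for the integrated stress and unfolded protein response, 0.611 for HOX genes and 0.626 for the 6 metallothioneins, all higher in PC3 cells. The first 3 of these were 0.163, 0.138 and 0.147 without the PC3 siGGGGGC library at 24 h, and 0.118, 0.15 and 0.141 with the offsets for GC content and length. Only 3 of the 34 HOX genes and 2 of the 6 metallothioneins were expressed in both lines, and with a floor of 100 counts in each line the HOX median was −0.112. Nothing about a difference between the lines is therefore read from the HOX and metallothionein medians. In each of the 6 lists at least 1 of the 4 medians by line and time lay within 0.1 of 0 on the log2 scale.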

How the results depend on the processing

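With 1 library per line, siRNA and time and 2 residual degrees of freedom, no gene was called in the main fit, with RLE size factors, limma voom, a floor of 100 counts, no time term, all 16 libraries or the offsets. Genes called higher and lower in PC3 cells came to 19 and 178 with DESeq2, 12 and 71 without a filter on low counts, 6 and 40 with mock added, and 57 and 465 with mock in place of siNT1. As each library was left out, with the lone library of that line assumed to vary like the others, they ranged from 0 to 33 and from 0 to 787, the highest without the PC3 siGGGGGC library at 48 h, and the cause was not tested. At an unadjusted p under 0.05, the genes lower in PC3 cells came to 680 with all 16 libraries and to between 629 and 1621 as each library was left out. Those higher came to 771 with mock added, 680 with mock in place of siNT1, 214 with a 2-fold difference in addition, and between 303 and 462 as each library was left out. Genes at least 2-fold higher came to 152 with mock in place of siNT1, 137 at 24 h, 176 at 48 h and 82 to 245 as each library was left out, and those at least 2-fold lower to 916 at 24 h, 183 with the offsets and 409 to 1061. As each library was left out, 9 of the 10 targets named by the study changed sign, 6 of them from a difference under 0.5 in size. These fits set 1 time point of a line against both of the other. Matched by time, each of the 10 had a difference of the same sign at 24 and 48 h. The difference of TGM2 ranged from −0.0252 to 2.15, that of CENPB from −1.27 to 0.118 and that of HMGA1 from −1.7 to 0.0914, with the sign turned without a HeyA8 library at 48 h for TGM2, either PC3 library at 48 h for CENPB and the PC3 siNT1 library at 48 h for HMGA1. Of 630 values of the 30 named genes under the alternatives, 463 kept direction and call, 134 kept direction and were called, 28 moved about 0 and 5 reversed. The blocks paired each siGGGGGC library with the siNT1 library of the same line and time. Without the time term the counts at an unadjusted p under 0.05 stayed within 1.5 times those with it. No paired analysis by replicate number was made, since the labels number no replicates.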
